A study of Homo sapiens with 15 samples.

Results

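The integrated stress response and the unfolded protein response were followed as a set of 38 genes in 15 libraries of Mia PACA-2, an established human pancreatic cancer line. The members were taken by name as targets and pathway genes of ATF4, CHOP, XBP1 and ATF6, and all 38 were among the 16887 genes of both deposited tables. They were split into 21 genes of the amino acid response and 17 chaperones, sensors and quality control genes of the endoplasmic reticulum (ER). Polyadenylated RNA was sequenced in 3 groups of 5 libraries: control cells, cells overexpressing cytidine deaminase (the CDA group) and cells overexpressing CDAE67Q, a form in which the catalytic glutamate is replaced by glutamine (the CDAE67Q group). Cytidine deaminase turns cytidine and deoxycytidine into the uridine forms. All groups were untreated, grew in the same medium and were numbered as pools 1 to 5 in their titles. What a pool was, whether pools were separate cultures, how the enzyme was introduced and what the control cells carried are not given, so the p-values below reflect only the variation among these 15 libraries, possibly technical. CDA transcript, from the transgene and the cell's own gene together, was 9.91 to 312 in the control, 775 to 5222 in the CDA group and 1357 to 5475 in the CDAE67Q group. These and all levels below are normalised counts (the deposited log2 values turned back to a linear scale), which are not adjusted for gene length and so are not compared between genes.

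The integrated stress response begins with phosphorylation of the initiation factor eIF2 by a set of kinases, among them GCN2, which senses uncharged tRNA, and PERK, which senses misfolded protein in the ER. Most translation then slows while that of ATF4 is favoured, and ATF4 with its CEBP partners switches on amino acid transporters, biosynthetic enzymes and tRNA synthetases. The unfolded protein response adds the ER sensors IRE1 and ATF6. IRE1 splices XBP1 messenger RNA, a step that gene levels do not show, and ATF6 is cut in the Golgi, after which both factors switch on chaperones and the machinery that removes misfolded protein.

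Some promoters of the members hold sequence elements that these factors are known to bind. Examples are shown because the matches fell mostly on different elements in the 2 lists. Promoters from 250 bases before to 50 after each start came from the RefSeq table of the GRCh38.p14 build, and 36 of the 38 members had at least 1 (19 amino acid response and 17 ER members, 52 promoters). The CEBP-ATF response element, TGATGNAAN on either strand, stood in 6 of 32 amino acid response promoters (18.8%, ASNS, SLC3A2, SLC7A1, CHAC1, AARS1 and CEBPG) and in 1 of 20 ER promoters (5%, HERPUD1). Among all 35116 promoters 3.61% held it. The ER stress response element, searched by its usual consensus on both strands, stood in 6 of 20 ER promoters (30%, PDIA6, HSPA5, HSP90B1, CALR, XBP1 and CRELD2), in 0 of 32 amino acid response promoters and in 0.0769% of all promoters. Its second form stood in 2 ER promoters (10%, HERPUD1 and SDF2L1) and in 0.0541% of all. The core TGACGTGG stood in no member promoter and in 0.729% of all. In all, 14 of the 36 members held any of these elements, and the other members held none in this window. A match is a description of the letters and not a measured binding site. Below, each stretch runs 5′ to 3′ along the gene's own strand and ends before the start site, with the matched element in capitals.
ASNS, chr7:97872443-97872501, minus strand: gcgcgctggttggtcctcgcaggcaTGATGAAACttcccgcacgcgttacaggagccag
CHAC1, chr15:40953236-40953294, plus strand: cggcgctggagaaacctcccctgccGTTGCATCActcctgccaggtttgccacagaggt
AARS1, chr16:70289661-70289719, minus strand: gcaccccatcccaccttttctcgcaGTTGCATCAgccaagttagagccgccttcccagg
CEBPG, chr19:33374046-33374104, plus strand: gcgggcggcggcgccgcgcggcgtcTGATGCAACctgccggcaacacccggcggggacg
HERPUD1, chr16:56931940-56931998, plus strand: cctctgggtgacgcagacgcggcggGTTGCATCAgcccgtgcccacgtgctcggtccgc
HSPA5, chr9:125241366-125241434, minus strand: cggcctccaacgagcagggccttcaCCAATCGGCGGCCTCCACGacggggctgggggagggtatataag
CALR, chr19:12938359-12938427, plus strand: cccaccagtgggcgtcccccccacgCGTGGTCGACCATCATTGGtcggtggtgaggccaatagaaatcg
CRELD2, chr22:49918529-49918597, plus strand: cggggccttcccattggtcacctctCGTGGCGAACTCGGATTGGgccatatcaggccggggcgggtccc
XBP1, chr22:28800578-28800646, minus strand: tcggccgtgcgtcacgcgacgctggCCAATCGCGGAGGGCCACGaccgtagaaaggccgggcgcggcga
SDF2L1, chr22:21642089-21642149, plus strand: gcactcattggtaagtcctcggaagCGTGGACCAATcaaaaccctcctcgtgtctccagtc
In ASNS and CEBPG the element lies 68 and 42 bases before the start and reads on the gene's strand. For both, the stretch shown lies inside the full span of the gene (chr7:97851677-97928441 and chr19:33373709-33382686). The start used there is therefore not the outermost start of the gene. In CHAC1, AARS1 and HERPUD1 it lies 210, 188 and 177 bases before the start and reads on the opposite strand.

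The libraries had an estimated depth of 21.3 to 31 M reads. Total normalised count was 23.3 to 25.6 M in 14 libraries and 28.4 M in CDAE67Q pool 2, which stood apart and is shown separately below. Cytokeratins KRT8 and KRT18 and vimentin were abundant in all libraries, and EPCAM and CDH1 were at most 3.50 and 3.62, near 0. The pool 5 libraries also stood apart. The cadherin CDH5 was at 576 to 618 in pool 5 and at 0 in the other 12 libraries, and CD14 was at 508 to 672 against at most 23.3. The summed level of the 3 endothelial markers was 582 to 620 in pool 5 against 1.01 to 27.2, with PECAM1 at most 2.31. That of the 5 leukocyte markers was 2073 to 2295 against 357 to 1143, with PTPRC at most 10.5. Among fibroblast markers COL1A2 was at 26087 to 29126 in pool 5 and 6983 to 41579 elsewhere, with DCN and LUM at 0. COL1A1 was at 97.8 to 195 in pool 5 against 7.16 to 99.0. Of the endocrine markers SYP was at 352 to 357 in pool 5 against 60.5 to 230, and INS, GCG and CHGA were at 0. The share of these features in the pool 5 results below was not tested.

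STC2, which encodes a secreted glycoprotein, was listed at 0 in all 15 libraries, and the other 37 members passed the filter of at least 10 normalised counts in at least 5 libraries. The amino acid response members varied more between libraries than the ER members, with a median SD over the 15 libraries of 0.55 log2 against 0.37, and 0.41 for all genes tested. The lowest and highest library differed 53.1-fold for NUPR1, 11.6-fold for VLDLR, 10.1-fold for ASNS and 10.0-fold for CHAC1. They differed 1.47-fold for PDIA6. Of the 20 amino acid response members, 7 were highest in control pool 3 and 6 in CDAE67Q pool 2, while 2 were highest in a CDA library.

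No member passed the test between any of the groups. In CDA against control, limma with Benjamini-Hochberg adjustment called 0 of 37 members at an adjusted p threshold of 0.05. It called 0 of all 11341 genes (percent called 0), of which 32 had an unadjusted p under 0.05, none of them a member. The same held for CDAE67Q against control, with 0 of 37 members and 0 of 11341 genes (percent called 0), of which 54 were under 0.05 unadjusted. CDA against CDAE67Q, the test of the difference between the active and the mutant form, called 0 of 37 members and 0 of 11588 genes (percent called 0), of which 24 were under 0.05 unadjusted. The values of 2 groups did not overlap for 0 of 37 members in each comparison, against 0.0529% of all genes for CDA and control, 0.0794% for CDAE67Q and control and 0.0431% for CDA and CDAE67Q. The comparisons with the control share its 5 libraries. These fits did not pair libraries by pool number, so the spread between pools is part of their error. In each, fewer genes were under 0.05 unadjusted than that threshold alone would give, so a missing call is weak evidence of no change. The overexpressed gene CDA itself was not called in either comparison with control, although its levels did not overlap (9.91 to 312 in control, 775 to 5222 in CDA and 1357 to 5475 in CDAE67Q). The fits thus missed a large known difference, and 0 of 37 members does not show that the members were unchanged.

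Transcription factors of the response come first. ATF4 (chr22:39520559-39522686, GRCh38) is the factor whose translation eIF2 phosphorylation favours. ATF4 stood at 6993, 8324, 12316, 5814 and 5728 in pools 1 to 5 of the control, 6119.9, 10175, 6520.2, 6207 and 5983 in the CDA group and 6889, 13087, 6273, 6174 and 5481 in the CDAE67Q group. Both overexpressing groups were highest in pool 2, the control was highest in pool 3, and the groups overlapped. The log2 difference was -0.13 (SE 0.232, 95% interval -0.64 to 0.37) for CDA and -0.06 (SE 0.274, 95% interval -0.66 to 0.53) for CDAE67Q against control, and -0.07 between the overexpressing groups. Each interval holds 0 and excludes a doubling of the level, but both directions remain within it. DDIT3 (chr12:57516588-57520517), which encodes CHOP, a factor that acts downstream of ATF4 in prolonged stress, followed the pool number. DDIT3 stood at 279.6, 619, 417, 161 and 695 in pools 1 to 5 of the control, 380.2, 511, 281, 161 and 642 in the CDA group and 460.0, 584, 208, 173 and 658 in the CDAE67Q group. Every group was lowest in pool 4 and highest in pool 5. The difference was -0.10 (SE 0.456, 95% interval -1.10 to 0.90) for CDA and -0.07 (SE 0.476, 95% interval -1.10 to 0.97) for CDAE67Q against control. These unpaired intervals include the spread between pools, which was large for DDIT3. Within pools the SD of the difference was 0.37 for CDA, below control in 3 of 5 pools, and 0.61 for CDAE67Q, also below in 3 of 5.

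ATF5, a relative of ATF4 with a similar translational control, had the smallest p of any member in CDA against control. ATF5 stood at 3402, 3395, 2275, 4213 and 1811 in pools 1 to 5 of the control, 2670.2, 1959.8, 1357, 2898 and 2039.8 in the CDA group and 2568, 3924, 1562, 2676 and 1669 in the CDAE67Q group. It was lower than the same-numbered control in 4 of 5 pools in either overexpressing group, with pool 5 the exception in CDA and pool 2 the exception in CDAE67Q. The difference was -0.45 (SE 0.265, 95% interval -1.03 to 0.13) for CDA (adjusted p = 1.00) and -0.30 (SE 0.295, 95% interval -0.94 to 0.34) for CDAE67Q (adjusted p = 1.00). CEBPB encodes a partner of ATF4 at amino acid response promoters. CEBPB stood at 1170.4, 2505, 1982, 1367 and 2365 in pools 1 to 5 of the control, 1669.8, 1977, 2257, 1321 and 2486 in the CDA group and 2251, 4796, 1986, 1451 and 2451 in the CDAE67Q group. In CDAE67Q it was above the same-numbered control in 5 of 5 pools, but the levels of the groups overlapped. The ratio to control was 1.92 in pool 1 and 1.91 in pool 2, but only 1.002 to 1.06 in the other pools. The difference was 0.40 (SE 0.315, 95% interval -0.28 to 1.09) for CDAE67Q against control (adjusted p = 1.00), and 0.15 without CDAE67Q pool 2.

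Next stand the negative regulators. DDIT4 (REDD1) restrains mTORC1 under stress. DDIT4 stood at 3156, 7844, 7694, 7532 and 6306 in pools 1 to 5 of the control, 6736, 3276, 4557, 3417 and 6084 in the CDA group and 8601, 6166, 7568, 3103 and 5628 in the CDAE67Q group. The control value of pool 1 was the lowest of its group by far, and CDA was below the control in the other 4 pools. The difference was -0.42 (SE 0.29, 95% interval -1.06 to 0.21) for CDA against control (adjusted p = 1.00). TRIB3 is a pseudokinase induced by ATF4 and CHOP that dampens their activity. TRIB3 stood at 879.5, 1625, 1769, 1036 and 805 in pools 1 to 5 of the control, 1009.7, 900.0, 1529, 922 and 849 in the CDA group and 1434, 3181, 1582, 908 and 823 in the CDAE67Q group. The CDAE67Q library of pool 2 held the highest value of all 15. CDA against CDAE67Q gave -0.46 (SE 0.333, 95% interval -1.17 to 0.25) (adjusted p = 1.00), and -0.17 without CDAE67Q pool 2. PPP1R15A (GADD34) guides the phosphatase that reverses eIF2 phosphorylation. It was lower in CDA than in the same-numbered control in 5 of 5 pools, with a mean log2 difference of -0.19 ± 0.12 (SD, n = 5), and did not pass the test.

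Among the enzymes, CTH, which makes cysteine from cystathionine, gave the smallest p of any member in CDA against CDAE67Q. CTH stood at 319, 440.3, 824, 392 and 485 in pools 1 to 5 of the control, 375, 197, 512, 323 and 476 in the CDA group and 629.9, 784, 588, 445 and 549 in the CDAE67Q group. The CDA value was below that of CDAE67Q in 5 of 5 pools, although the groups overlapped. The difference was -0.72 (SE 0.285, 95% interval -1.33 to -0.12), with an unadjusted p of 0.0224 and an adjusted p of 1.00 by limma. Against control, CTH gave -0.38 in CDA and 0.34 in CDAE67Q. ASNS, which makes asparagine and is a standard readout of ATF4, spread widely within each group. ASNS stood at 1863, 3646, 9224, 2573 and 916 in pools 1 to 5 of the control, 2655, 1914, 5177, 2679.8 and 995 in the CDA group and 3007, 7507, 4714, 3254 and 1222 in the CDAE67Q group. The difference from control was -0.21 (SE 0.569, 95% interval -1.46 to 1.03) for CDA and 0.30 (SE 0.583, 95% interval -0.97 to 1.57) for CDAE67Q. These unpaired intervals include the spread between pools and could not separate a fall from a rise. Within pools the SD of the difference was 0.63 for CDA, above control in 3 of 5 pools, and 0.76 for CDAE67Q, above in 4 of 5. The tRNA synthetases AARS1, SARS1 and WARS1, which load alanine, serine and tryptophan, gave -0.02, -0.10 and -0.24 in CDA and 0.19, 0.0022 and -0.15 in CDAE67Q against control.

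The transporters differed from control by at most 0.32 log2. SLC7A5 is the light and SLC3A2 the heavy chain of the LAT1 exchanger for large neutral amino acids, SLC7A11 imports cystine and SLC7A1 imports arginine and lysine. CDA against control gave -0.06, -0.01, -0.32 and 0.08 in that order. CDAE67Q against control gave 0.18, 0.32, 0.07 and -0.08. None passed the test. The widest interval among them belonged to SLC7A11 in CDAE67Q, from -1.10 to 1.25, which excludes neither a doubling nor a halving.

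Of the ER sensors, XBP1 is the transcript that IRE1 splices. XBP1 stood at 2002, 3341, 2715, 2332 and 2942 in pools 1 to 5 of the control, 2392, 2319, 2382, 2312 and 2578 in the CDA group and 2579.8, 3575, 2482, 2465 and 2846 in the CDAE67Q group. The CDA libraries lay in a narrower band than those of the other groups. The difference was -0.13 (SE 0.15, 95% interval -0.46 to 0.20) for CDA and 0.07 (SE 0.179, 95% interval -0.32 to 0.46) for CDAE67Q against control, and -0.21 (SE 0.152, 95% interval -0.53 to 0.12) between them. ERN1 (IRE1), EIF2AK3 (PERK) and ATF6 gave 0.07, -0.05 and -0.06 in CDA, and 0.05, -0.26 and -0.04 in CDAE67Q. None of the sensors passed.

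HSPA5 (chr9:125234853-125241343) encodes BiP, the main ER chaperone of the Hsp70 family. HSPA5 stood at 21352, 28037, 20922, 24316 and 31942 in pools 1 to 5 of the control, 26762, 24918, 17630.4, 24189 and 28659.5 in the CDA group and 25656, 31937, 18936, 23146 and 33702 in the CDAE67Q group. Pool 3 was the lowest pool in every group. The difference was -0.05 (SE 0.183, 95% interval -0.45 to 0.35) for CDA and 0.06 (SE 0.206, 95% interval -0.39 to 0.51) for CDAE67Q against control, intervals that exclude a doubling or halving. The other chaperones gave similarly small values in CDA: HSP90B1 (GRP94) -0.02, CALR (calreticulin) -0.01, PDIA4 0.04 and PDIA6 0.04. MANF, a small secreted ER stress factor, had the smallest p of the ER members against control in both groups. MANF stood at 1039.8, 1780.2, 826, 1189.8 and 1094 in pools 1 to 5 of the control, 1382, 1912, 1327, 1480.2 and 1041 in the CDA group and 1125, 2465, 1421, 1397 and 1182 in the CDAE67Q group. It was higher than the same-numbered control in 4 of 5 CDA pools and in 5 of 5 CDAE67Q pools, by log2 differences of 0.29 (SE 0.22, 95% interval -0.19 to 0.77) and 0.34 (SE 0.255, 95% interval -0.21 to 0.90) (adjusted p = 1.00 and 1.00).

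**Figure D1:**
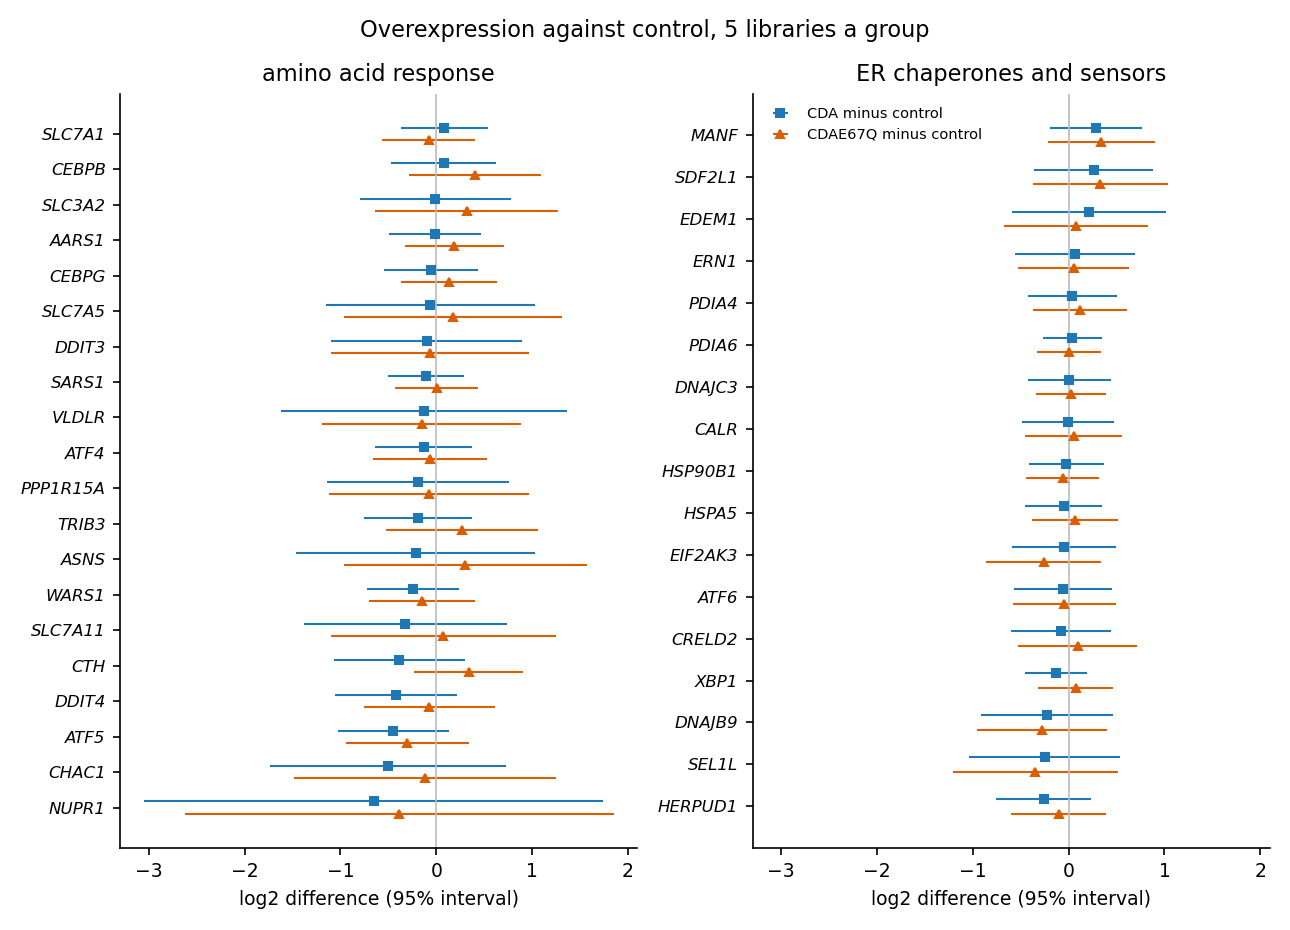
Log2 difference of each member in CDA (squares) and CDAE67Q (triangles) against control, with 95% intervals from limma, for amino acid response genes (left) and ER genes (right), 5 libraries a group. Every interval holds 0, and the widest belong to some of the amino acid response genes, reaching from -3.05 to 1.74 for NUPR1 in CDA.

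Few members kept 1 direction in all pools. CDA was lower than the same-numbered CDAE67Q library in 5 of 5 pools for CTH, SLC7A5, XBP1 and HERPUD1, 4 of 37 members, against 1.79% of all genes, and higher for 0 of 37, against 2.63%. The mean log2 difference within pools was -0.15 ± 0.12 (SD, n = 5) for HERPUD1, an ER membrane protein of the degradation pathway, -0.21 ± 0.24 for XBP1 and -0.24 ± 0.24 for SLC7A5. None of these was called with the pool number as a block. Against control, EDEM1 was higher in CDA in 5 of 5 pools (0.21 ± 0.25, SD, n = 5) and PPP1R15A lower, against 1.97% and 1.61% of all genes. CEBPB and MANF were higher in CDAE67Q in 5 of 5 pools, against 2.1%, and 0 of 37 members were lower, against 2.03%.

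As a list, 18 of 20 amino acid response members were lower in CDA than in control, with a median log2 difference of -0.16 beside 0.011 for all genes, of which 5349 of 11341 were lower. Without control pool 3 the median was -0.00916 and 11 of 20 were lower. In CDAE67Q against control 10 of 20 were lower, with a median of -0.031 beside 0.0071 for all genes. Without control pool 2 or control pool 3, 5 or 6 of 20 were lower there (median 0.18 without control pool 3), and without CDAE67Q pool 2 the number was 14. CDA was lower than CDAE67Q for 18 of 20 members (median -0.22 beside -0.0014 for all genes), and without CDAE67Q pool 2 for 14 (median -0.044). The mean deviation of the list ranged from -0.28 to 0.54 in the control (SD 0.376), from -0.26 to -0.052 in CDA (SD 0.0736) and from -0.24 to 0.77 in CDAE67Q (SD 0.398). The ER list showed no shared direction. In CDA against control 10 of 17 were lower (median -0.024), a count of 6 without CDA pool 3 or without control pool 5, and in CDAE67Q against control 6 of 17 were lower (median 0.052), a count of 10 without control pool 1. CDA was lower than CDAE67Q for 10 of 17 ER members (median -0.017).

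The list was then read within single pools. In pool 3 the control stood above both overexpressing libraries: 18 of 20 amino acid response members were lower in CDA and 19 of 20 in CDAE67Q. CHAC1 and SLC7A11 were at least 2-fold lower in both, and VLDLR in CDA, so 3 and 2 amino acid response members passed that fold. In the ER list SEL1L was at least 2-fold lower in both. These counts stand against 5.38% and 5.13% of all genes. CHAC1, an enzyme that breaks down glutathione, is a well-known ATF4 target. CHAC1 stood at 223, 838, 1430.3, 240.2 and 183 in pools 1 to 5 of the control, 350.4, 339, 437, 279 and 143 in the CDA group and 497, 965, 416, 268 and 145 in the CDAE67Q group. Its level in control pool 3 was the highest of all 15 libraries. In pool 2 CDA again lay below the control for most of the list (16 of 20, median -0.41), but CDAE67Q did not. Pools 1, 4 and 5 did not repeat the shift in either group. In pool 1, 12 of 20 members were higher in CDA than in control (median 0.21) and 11 of 20 in CDAE67Q (median 0.33), and of the ER list 15 of 17 (median 0.28) and 13 of 17 (median 0.25). In pool 4, 11 of 20 were higher in CDA and 13 of 20 in CDAE67Q, and in pool 5, 9 of 20 in either. With 1 library on each side, these pool values have no replicate check.

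In pool 2 the overexpressing libraries lay on opposite sides of the control for most of the list. They also differed in CDA transcript, at 5222 in CDA pool 2 and 1746 in CDAE67Q pool 2, and the share of this difference was not tested. In CDAE67Q pool 2, 16 of 20 amino acid response members were higher than in control pool 2 (median 0.47), and ASNS passed a 2-fold difference, against 5.64% of all genes in that direction. In CDA pool 2, 16 of 20 were lower than in the same control (median -0.41), with DDIT4, CHAC1, CTH and NUPR1, and DNAJB9 of the ER list, at least 2-fold lower, against 6.45% of all genes. Directly compared, CDA pool 2 was lower than CDAE67Q pool 2 for 18 of 20 members (median -0.93). Of these, 9 were at least 2-fold lower, against 10.4% of all genes: ATF5, TRIB3, CHAC1, ASNS, CTH, CEBPB, SLC3A2, SLC7A11 and NUPR1. VLDLR, a lipoprotein receptor, was at least 2-fold higher. The ATF4 transcript itself was high in both, at 10175 in CDA and 13087 in CDAE67Q against 8324 in the control.

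Within CDAE67Q pool 2, 19 of 20 amino acid response members were above their 15-library mean. The log2 difference from control pool 2 was 1.04 for ASNS, 0.97 for TRIB3, 0.94 for CEBPB and 0.83 for CTH. DDIT3, SLC7A1, DDIT4 and VLDLR were below the control there, at -0.08, -0.14, -0.35 and -0.69. The ER members did not move as a block: SDF2L1, a chaperone cofactor, was 0.84 and MANF 0.47 above the control, while DNAJB9, a BiP cochaperone, was -1.45 and EIF2AK3 -0.80. This library held the highest value of 4 ER members and the lowest of 4 others. Its total normalised count was also the highest. Scaled to the upper quartile instead, its mean deviation over the amino acid response was 0.69 in place of 0.77, still the highest of the 15. Control pool 3 came next, at 0.57 in place of 0.54. The total was 28.4 M in CDAE67Q pool 2 and 23.9 M in control pool 3. The mean deviation was not computed with equal totals, so the order of these libraries under that scaling was not tested.

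**Figure D2:**
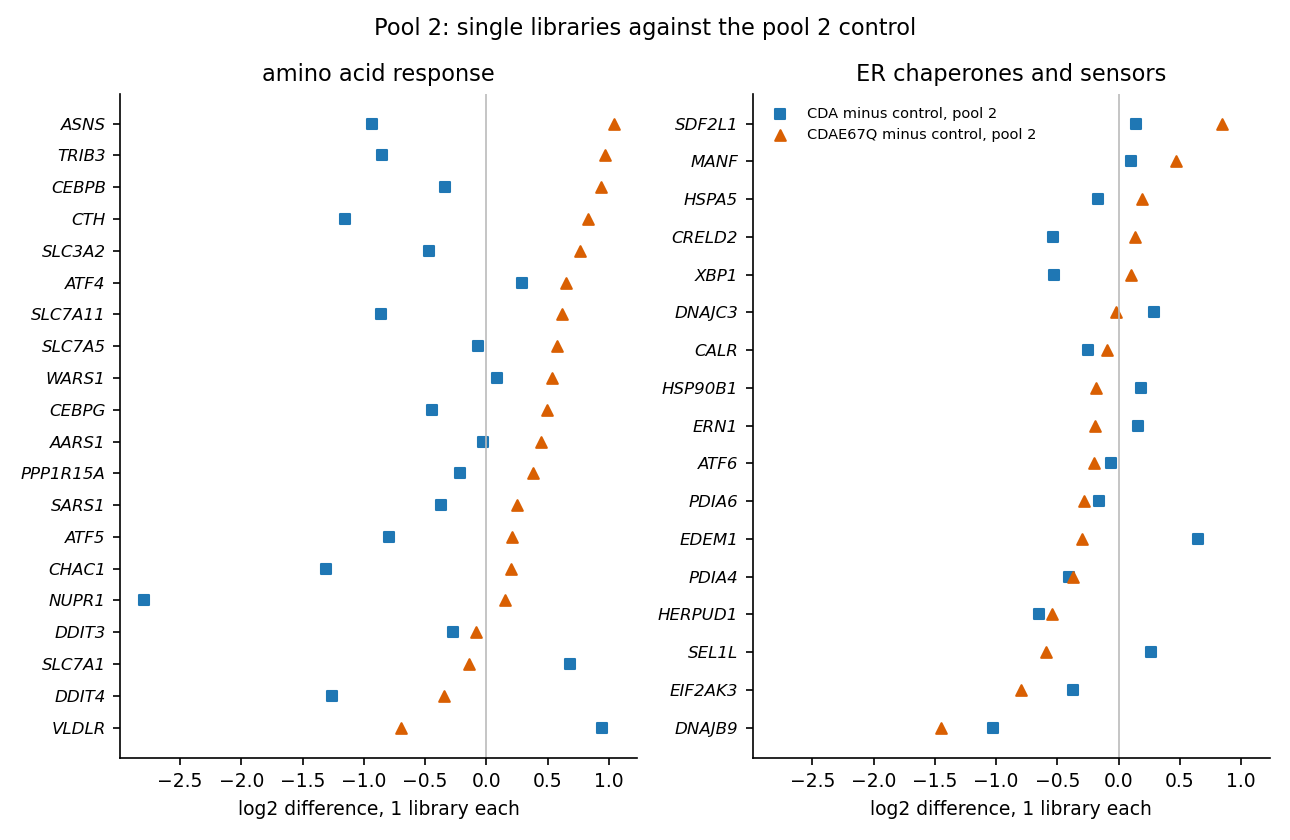
Log2 difference from the control library of pool 2 for each member in CDA pool 2 (squares) and CDAE67Q pool 2 (triangles), with amino acid response genes left and ER genes right, 1 library each and so without error bars. In the amino acid response 16 of 20 triangles lie above 0 and 16 of 20 squares below it.

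Many members differed between pool numbers. A moderated F test of pool number over the 15 libraries, with group in the fit, called 24 of 37 members, 15 of 20 in the amino acid response and 9 of 17 in the ER list, against 45% of all 11588 genes. Each pool number holds 1 library of each group, so the 3 libraries of a number served as its replicates. Without pool 5, 2 of 37 members passed, DDIT3 and PPP1R15A, against 1.43% of 11395 genes, and 22 of the 24 calls were lost. Leaving out single libraries gave 16 to 26 members. The lowest number, 16, came without control pool 5, and 15 of the 24 calls were kept whichever library was left out.

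PPP1R15A had the smallest p of the amino acid response (adjusted p = 1.87e-05, limma F test). PPP1R15A stood at 4526, 5168, 3064, 1197 and 3194 in pools 1 to 5 of the control, 4044, 4455, 2365, 1155 and 2876 in the CDA group and 4476, 6717, 2176, 1171 and 2752 in the CDAE67Q group. All 3 pool 4 libraries lay at 1155 to 1197, below the other 12 at 2176 to 6717, and the groups ran in parallel across the numbers. DDIT3 was also lowest in pool 4, at 161 to 173 against 208 to 695 elsewhere (adjusted p = 0.000414). For 2 of 37 members the pool 4 libraries lay below the other 12, against 1.79% of all genes. SLC7A5 and SLC3A2, the subunits of the same exchanger, were both lowest in pool 5. SLC7A5 stood at 7751, 12012, 18922, 9678 and 3094 in pools 1 to 5 of the control, 7418, 11461, 13306, 12344 and 3042 in the CDA group and 7533, 17938, 15149.5, 14311 and 3326 in the CDAE67Q group. SLC3A2 stood at 4170.2, 8383, 6666, 4469.8 and 2247 in pools 1 to 5 of the control, 5136, 6071, 5934, 5211 and 2325 in the CDA group and 6436, 14282, 5906, 5205 and 2474 in the CDAE67Q group. The pool 5 values of either gene lay within a narrow band whatever the group, and the adjusted p was 2.06e-05 for SLC7A5 and 0.000342 for SLC3A2. NUPR1, a small chromatin-associated stress protein, ran the other way (adjusted p = 0.000874). NUPR1 stood at 145, 139.6, 28.0, 29.8 and 850.1 in pools 1 to 5 of the control, 58.2, 19.2, 40.9, 38.3 and 817 in the CDA group and 122, 155, 16.0, 28.2 and 430.3 in the CDAE67Q group. Pool 5 was highest in every group, and CDA pool 2 was far below the other libraries of pool 2.

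Of the ER list, EDEM1, which draws misfolded glycoproteins toward degradation, had the smallest p (adjusted p = 0.000387). EDEM1 stood at 1145, 1763, 1931, 1090.0 and 683 in pools 1 to 5 of the control, 1248, 2762, 1956, 1218 and 736 in the CDA group and 1173, 1432, 2374, 1363 and 694 in the CDAE67Q group. Pool 5 was lowest in every group. The sensor ATF6 (chr1:161766320-161964070) was highest there (adjusted p = 0.00113). ATF6 stood at 1988, 1571, 1729, 1542 and 2956 in pools 1 to 5 of the control, 1797, 1505, 1404, 1833 and 2870.1 in the CDA group and 1599, 1368, 1709, 1848 and 3064 in the CDAE67Q group. Outside pool 5 its level kept within 1368 to 1988. SDF2L1 (0.00414), MANF (0.00618) and CRELD2 (0.00848) followed by adjusted p. SDF2L1 stood at 697, 945, 562, 1149 and 529.9 in pools 1 to 5 of the control, 1082, 1041, 922, 1101 and 486 in the CDA group and 1051, 1698, 720.0, 1054 and 519 in the CDAE67Q group. CRELD2 stood at 1112, 1580.0, 611, 1355 and 919 in pools 1 to 5 of the control, 1130.2, 1087, 837, 1065 and 933 in the CDA group and 1327, 1734, 770.3, 1118 and 934 in the CDAE67Q group. SDF2L1 was lowest in pool 5, and CRELD2, another secreted ER stress protein, was lowest in pool 3. MANF, whose values are given above, was higher in all 3 libraries of pool 2, at 1780.2 to 2465, than in the other 12, at 826 to 1480.2, the 1 member of 37 for which this held, against 1.55% of all genes. In pool 3 HSPA5, CALR and CRELD2 were each lower in all 3 libraries than in the other 12, which held for 3 of 37 members and 1.08% of all genes. PDIA6, HSP90B1 and XBP1, which hold the same promoter element, overlapped there.

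**Figure D3:**
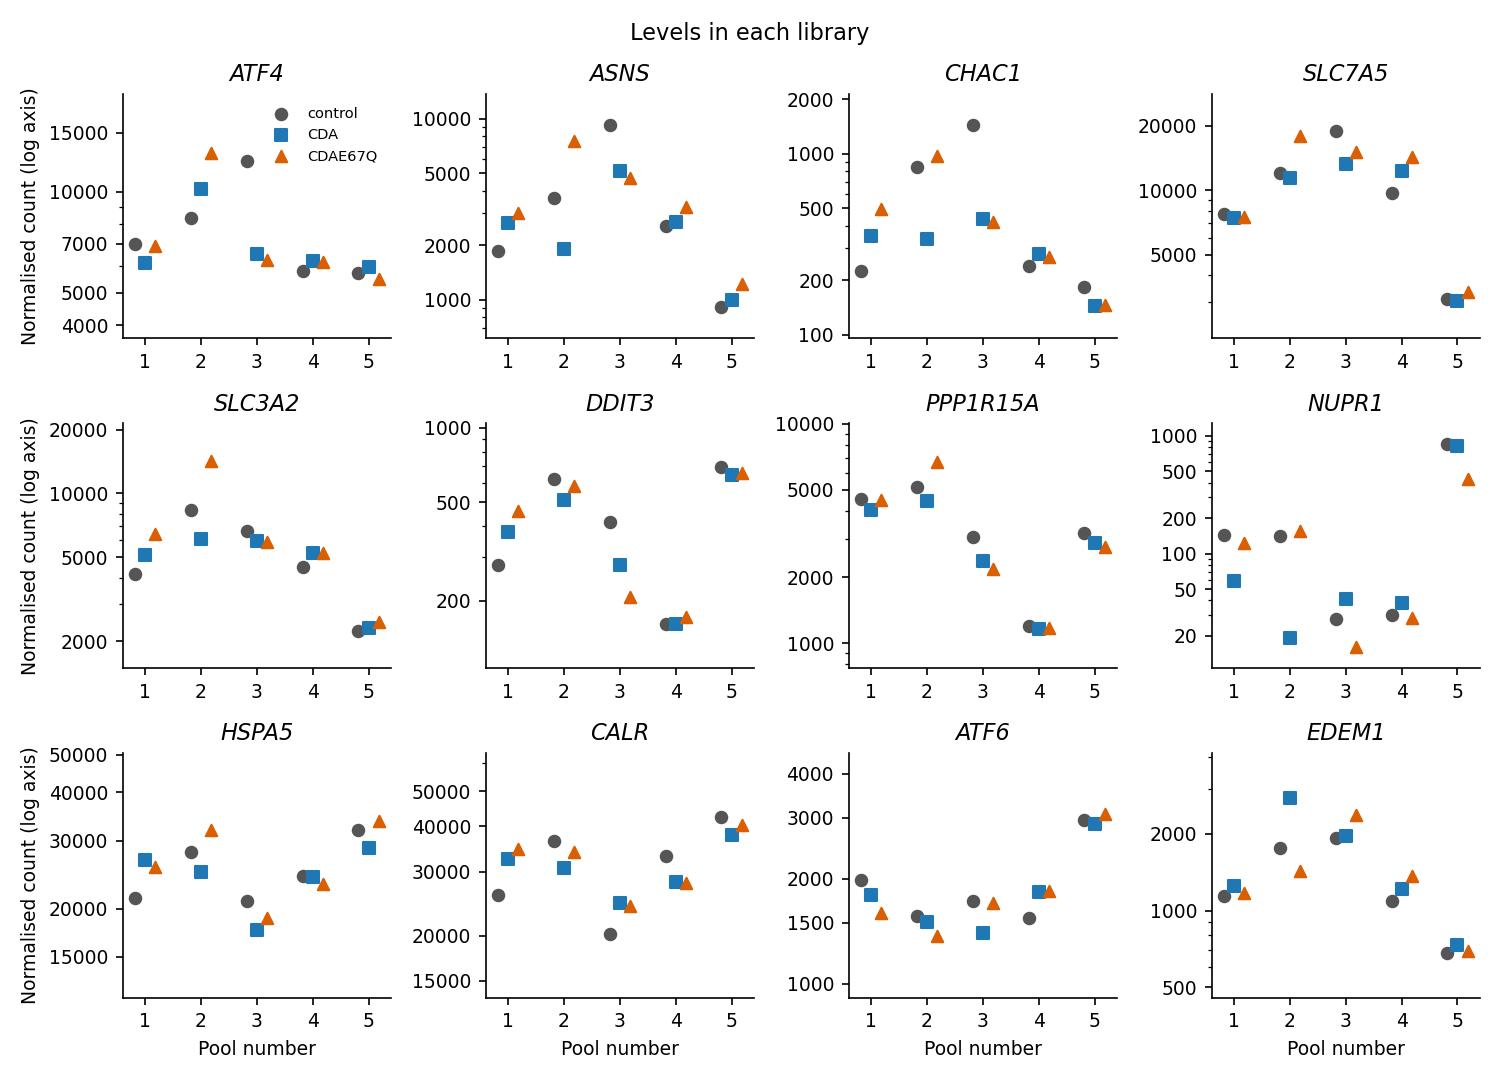
Normalised count (log axis) of 12 members by pool number, with 1 point per library and the groups set side by side within a number. The symbols of a number lie close together for SLC7A5 and ATF6, with pool 5 apart, and for PPP1R15A, with pool 4 lowest, while ASNS and CHAC1 spread within pools 2 and 3.

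A contrast of pool 5 with the other 4 pools, chosen after pool 5 was seen to stand apart, called 20 of 37 members. Of these 7 were higher, against 24.4% of all genes, and 13 were lower, against 24.2%, and 48.6% of all genes were called in either direction. A larger share of the members than of all genes was called lower and a smaller share higher, a description with no test. The contrast took its error from the spread within pools, with the 3 libraries of pool 5 as replicates. Its p-values therefore do not measure pool 5 against the usual spread between pools. In the amino acid response 10 were lower and 2 higher, with a median log2 difference of -0.45 beside 0.018 for all genes. In the ER list 5 were higher and 3 lower, with a median of 0.19. The count of higher members was 4 without control pool 5 and that of lower members 8 without CDAE67Q pool 5. Of the 20 calls, 11 were kept whichever single library was left out. All 3 pool 5 libraries lay above the other 12 for 5 members (DDIT3, NUPR1, ATF6, CALR and SEL1L), against 16.9% of all genes. They lay below them for 10 (TRIB3, CHAC1, ASNS, SLC7A5, SLC3A2, SLC7A11, SARS1, DNAJC3, SDF2L1 and EDEM1), against 17.3%.

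The 10 lower members of the amino acid response were the transporter genes SLC7A5, SLC3A2 and SLC7A11, the enzymes ASNS and CHAC1, the synthetases AARS1 and SARS1, and the regulators TRIB3, CEBPG and ATF5. SLC7A1, CTH and WARS1 of the same classes did not pass. In control, CDA and CDAE67Q order, the pool 5 libraries held 916, 995 and 1222 of ASNS, against 1863 to 9224 elsewhere, a difference of -1.77 (SE 0.284, adjusted p = 0.000304). SLC7A11, the cystine importer, was at 106, 176 and 162 against 217 to 1028, a difference of -1.34 (SE 0.382, adjusted p = 0.0117). CHAC1 was lower by the same contrast, at -1.49 (SE 0.358, adjusted p = 0.00456). SLC7A5 fell by 1.90 and SLC3A2 by 1.39 on the log2 scale (adjusted p = 1.92e-06 and 4.80e-05). Smaller decreases passed for TRIB3 (-0.65), CEBPG (-0.55), AARS1 (-0.54), ATF5 (-0.50) and SARS1 (-0.50). The TRIB3 call was lost when any of 10 single libraries was left out and under upper-quartile scaling, while that of SARS1 was kept under every alternative run for this contrast. ATF4 itself gave -0.41 (SE 0.182, adjusted p = 0.0817) and did not pass. Of the 7 members with a CEBP-ATF match, ASNS, SLC3A2, CHAC1, AARS1 and CEBPG were among the lower members, while SLC7A1 (-0.11) and HERPUD1 (-0.10) did not pass.

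The stress factors DDIT3 and NUPR1 were higher in pool 5. DDIT3 was at 695, 642 and 658, against 161 to 619 in the other 12 libraries, a difference of 1.07 (SE 0.2, adjusted p = 0.000882). Pool 2 came close to it, at 511 to 619, and pool 4 was lowest, at 161 to 173. NUPR1 was at 850.1, 817 and 430.3 against 16.0 to 155, a difference of 3.70 (SE 0.512, adjusted p = 0.000108), the largest of any member. DDIT3 and the 10 lower amino acid response members thus stood on opposite sides in the same 3 libraries. Among ER members SEL1L, the scaffold of the ER ubiquitin ligase complex, was at 2503, 1714 and 2053 against 568 to 1548, a difference of 1.25 (SE 0.245, adjusted p = 0.0012). ATF6 gave 0.85 (SE 0.114, adjusted p = 8.93e-05), and ERN1, CALR and HSPA5 gave 0.50, 0.47 and 0.41. The ERN1 call was lost without any of 5 single libraries, without pool 2 and with equal totals. EDEM1 (-1.14), SDF2L1 (-0.92) and DNAJC3 (-0.42), an inhibitor of eIF2 kinases and BiP cochaperone, were lower. Of the 6 members with an ER stress response element, CALR and HSPA5 passed the contrast and PDIA6, HSP90B1, XBP1 and CRELD2 did not. Of those with its second form, SDF2L1 was lower and HERPUD1 did not pass.

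**Figure D4:**
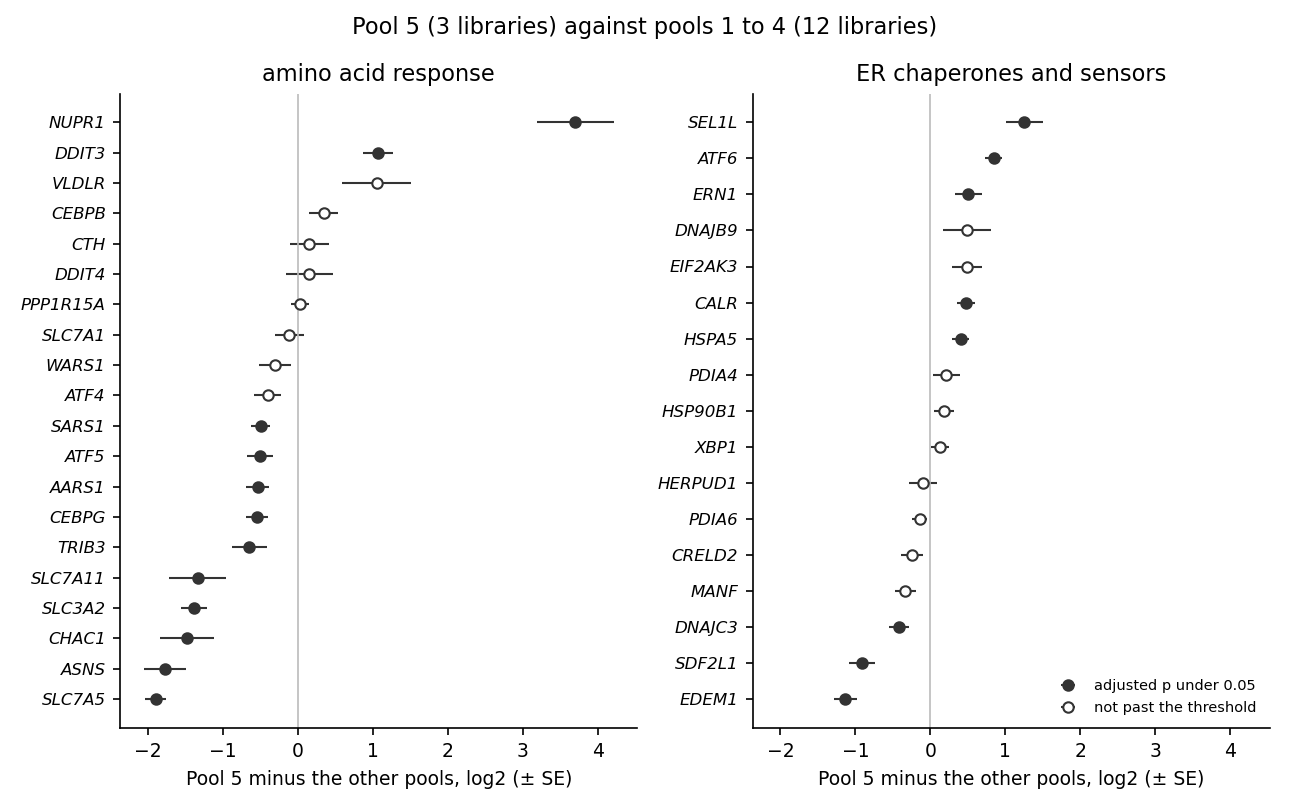
Log2 difference between the 3 libraries of pool 5 and the other 12 for each member (± SE, limma), with filled symbols for an adjusted p under 0.05, amino acid response genes left and ER genes right. NUPR1 lies at 3.70 and SLC7A5 at -1.90, and 10 amino acid response genes pass on the lower side.

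Other genes of the pathway, in lists of eIF2 kinases and subunits, further ATF4 partners and targets, and further ER folding and degradation genes, varied with pool number as well. The F test called 10 of 17 eIF2 control genes, 24 of 47 ATF4 partners and targets and 22 of 50 other ER genes, against the same 45%. In pool 5, 3 eIF2 control genes were higher and 7 lower, 7 ATF4 partners and targets were higher and 18 lower, and 7 other ER genes were higher and 10 lower, beside 24.4% higher and 24.2% lower among all genes. PSAT1, an enzyme of serine synthesis and ATF4 target, was lower by a log2 difference of -2.05 (SE 0.181, adjusted p = 4.96e-06), and KLHL24 was higher by 2.49 (SE 0.246, adjusted p = 9.66e-06). PPP1CA, the catalytic phosphatase that GADD34 directs to eIF2, gave -1.24 (SE 0.114, adjusted p = 6.12e-06), and EIF2S3, the gamma subunit of eIF2, gave 1.08 (SE 0.149, adjusted p = 0.000106). The ER oxidase ERO1B gave 1.40 (SE 0.159, adjusted p = 2.63e-05), and VCP, the ATPase that extracts proteins from the ER membrane, gave -0.92 (SE 0.118, adjusted p = 6.35e-05).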

How the data were processed

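Messenger RNA was sequenced from 15 libraries, 3 groups of 5, grouped by the sample titles. Per the labels' protocols, polyadenylated mRNA was selected from 1 µg of total RNA. Tools named in the submitters' processing notes are Salmon, Trimmomatic, FastQC and bcl2fastq, without versions, on GRCh38 (hg38). The sources used here do not give the strand setting, so reads of overlapping and antisense genes cannot be told apart. The authors deposited 2 tables, control with CDA and control with CDAE67Q, of log2 values with a floor of 6.65 and 6.17 for genes without reads. They have the form of variance-stabilised counts, though the sources used here do not say how they were made. They were turned back to normalised counts by (V - F) squared over V, with V and F as 2 to the power of the value and of the floor. The 5 controls, present in both tables, put 13917 genes on 1 scale (largest residual 3.06e-08 log2 over 11793 genes), and 2970 genes were left off it. Whole reads were not recovered, so depth is an estimate and no counting interval is given.

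In R 4.3.3, limma 3.58.1 was fitted with a trended prior variance to log2(normalised count + 1), which understates the change of low genes, for genes with at least 10 in at least 5 libraries. P-values were 2-sided and adjusted by Benjamini-Hochberg over all genes tested. Each overexpressing group was compared with control within its own table, and the other tests used all 15 libraries. Same-numbered CDA and CDAE67Q libraries deviated together (correlations 0.332 to 0.893), and so did those of pools 2 to 5 with their controls (0.317 to 0.887). Those of pool 1 with its control did not (0.0106 and -0.0596). No block was used in the main group comparisons, so their SEs and intervals include the spread between pool numbers. The block was run as an alternative. Members, lists, tests and most alternatives were chosen with earlier results of these data known. Values in every library are given for the 4 members with the smallest p in each group comparison, the 5 of each list with the smallest p between pool numbers, and ATF4, DDIT3, XBP1 and HSPA5. ASNS, CHAC1 and the pool 5 contrast were added after their values were seen, and 2 genes with the smallest p are named from each other list, except 1 that is not reported here. Alternatives changed the pseudocount, filter, scaling, block and libraries. The fits were tested on simulated data. Of the gene names, 16667 matched current symbols. Tables and plots were made with matplotlib 3.10.9, pandas 2.3.3, numpy 2.4.6 and Python 3.11.15.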

Additional observations from a re-analysis of the deposited data

Results flagged for a closer look

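Of 60 sets of 5 libraries tested (18 members chosen by the naming rule and the mean of each list, in each group), 5 had 1 library far from the other 4, by a gap over the range of more than 0.71 on the log2 scale of the tests. Chance gives about 1 in 20 for a set chosen without regard to its values. These members, other than ATF4, DDIT3, XBP1 and HSPA5, were chosen by small p in the same data, and the sets share libraries. That rate therefore cannot be set against 5 of 60. DDIT4 was lowest in control pool 1, at 3156 against 6306 to 7844 in the other control libraries. ATF4 was highest in pool 2 of both overexpressing groups, at 10175 in CDA, against 5983 to 6520.2 in the other pools, and at 13087 in CDAE67Q, against 5481 to 6889. SLC3A2 and SDF2L1 were lowest in CDA pool 5, at 2325 and 486. The other 4 CDA libraries held 5136 to 6071 of SLC3A2 and 922 to 1101 of SDF2L1.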

How the results depend on the processing

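No member was called between groups under any of the alternatives, the replicate block included (0 members in each of the 3 comparisons, also with all 15 libraries in 1 fit and on the deposited values). Of all genes, 1 was called in each comparison with control when the block was used on the deposited values. The same number was called with the block and all 15 libraries in 1 fit. The block for CDA and CDAE67Q, whose numbers pair, likewise changed no call. With 1 library left out at a time, small differences changed sign: ATF4 -0.275 to 0.0458 for CDA and -0.280 to 0.114 for CDAE67Q against control and -0.212 to 0.147 between them, DDIT3 -0.412 to 0.181, -0.377 to 0.200 and -0.302 to 0.249, HSPA5 -0.115 to 0.0619 and -0.0292 to 0.179 against control, and XBP1 -0.0242 to 0.161 for CDAE67Q. Without pool 2, ATF4 and DDIT3 gave 0.00475 and 0.00539 between CDA and CDAE67Q. Members lower ranged from 11 to 19 (CDA) and 5 to 14 (CDAE67Q) in the amino acid response and from 6 to 12 and 6 to 10 in the ER list, against control. In the pool 5 contrast 4 to 9 members were higher and 8 to 14 lower. Members called between pool numbers fell from 24 to 2 without pool 5, and the all-gene share from 45% to 1.43%. The causes were not tested. Scaling to upper quartiles or equal totals changed the number of members called in either direction by at most 1, and ended the pool 5 call of TRIB3 (upper quartiles) and of ERN1 (equal totals). The median of all genes moved by under 0.1 log2 under each scaling. The spread between libraries limits what could be seen. For ASNS in CDA against control the unpaired interval, which includes the spread between pools, reached from -1.46 to 1.03. No counting interval was available for low genes such as NUPR1.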

Other observations

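In the group comparisons, other genes of the pathway were also not called by limma. Of 47 further ATF4 partners and targets, 31 were lower in CDA than in control (median log2 difference -0.11 beside 0.011 for all genes), 31 were higher in CDAE67Q (0.096 beside 0.0071), and 37 were lower in CDA than in CDAE67Q (-0.13 beside -0.0014). The 2 comparisons with control share its libraries. The genes with the smallest p were SLC6A9, a glycine transporter, and DDR2, a collagen receptor, for CDA, at -0.61 (SE 0.304) and 0.66 (SE 0.344). SLC6A9 was also among them for CDAE67Q, at -0.43. Between CDA and CDAE67Q the genes were EPRS1 and SESN2, at -0.33 and -0.38.

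Of 17 eIF2 control genes, 7 were lower in CDA and 7 in CDAE67Q than in control (median 0.052 and 0.0075), and EIF2AK1, the heme-regulated eIF2 kinase, gave -0.27 in CDA. EIF2B4 gave 0.17 there, while IMPACT and PPP1R15B gave -0.31 and -0.21 in CDAE67Q. Of 50 other ER genes, 27 were lower in CDA (median -0.0037) and 32 higher in CDAE67Q (0.053), led by EDEM3 (-0.21) and TRAF2 (0.25) in CDA and by RPN1 (0.32) and HYOU1 (0.39) in CDAE67Q. None of these differences passed the adjusted threshold.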
